A study of Mus musculus with 6 samples.

Results

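The 10 genes Pou3f2, Foxp2, Runx1t1, Tox, Zfp462, Chd7, Dlx5, Dlx6, Prdm13 and Plag1 encode transcription factors and chromatin regulators of the developing nervous system. They were taken by gene name from the 53546 gene features counted in each of 6 mouse RNA sequencing libraries, 3 labelled spinal cord injury and 3 labelled control, all of strain C57BL/6. In 1 label field the tissue of all 6 is spinal cord and in another it is intervertebral disc, while the series text speaks of retina and of mice 21 days old. No injury method and no time after injury is given. Separate animals are not stated, and each p-value below therefore covers library-to-library spread that may be technical.

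Transcription factors bind DNA through a folded domain that gives each family its name, and they set which genes a developing neuron or glial cell uses. Pou3f2 (Brn2), a POU and homeodomain protein, acts in neural progenitors and in upper-layer neurons of the cortex. Dlx5 and Dlx6 are paired distal-less homeodomain genes of forebrain interneurons and of the skeleton. Foxp2 is a forkhead repressor of neuronal subtypes, known in humans for its role in speech. Prdm13 is a zinc finger factor of dorsal spinal cord and retinal interneurons. Zfp462 and Plag1 are zinc finger proteins, and Plag1 activates growth factor genes in fetal tissue. Tox is a protein of the HMG-box family, best known from T cell development. Runx1t1 is a corepressor that recruits histone deacetylases, and Chd7 is an ATP-dependent chromatin remodeller whose human counterpart is mutated in CHARGE syndrome.

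All 10 features lay on exons of the gene of their name. Set against GENCODE M21 on the mouse build GRCm38, Foxp2 had 99.8% of its exonic bases on its own exons and the other 9 genes had 100%. Of all features, 1741 (3.25%) held at least 90% of their bases on exons of their own gene, so most other names in the files cannot be read in this way. Pou3f2, Prdm13, Runx1t1, Chd7, Tox, Plag1 and Zfp462 lie on chromosome 4, and Dlx5, Dlx6 and Foxp2 on chromosome 6. The Tox exons share 260 bases with the feature Gm11802 and the Dlx6 exons share 104 bases with Dlx6os2, where reads were not assigned to either. Coordinates below are as deposited, and the headers name no build for them.

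The RefSeq promoter table (build GRCm38.p6) held 2 of the 10 genes, Pou3f2 and Prdm13, and their start regions are shown for that reason. Both had no count in controls 1 and 2 and some in each of the other 4 libraries. Each run covers 250 bases before and 50 after the start, on the minus strand of chromosome 4, at chr4:22488317-22488616 for Pou3f2 and chr4:21685914-21686213 for Prdm13. Capitals mark matches on either strand to the letters CCAAT (the CCAAT box) and GGGCGG (the GC box), and overlapping matches run together.
Pou3f2: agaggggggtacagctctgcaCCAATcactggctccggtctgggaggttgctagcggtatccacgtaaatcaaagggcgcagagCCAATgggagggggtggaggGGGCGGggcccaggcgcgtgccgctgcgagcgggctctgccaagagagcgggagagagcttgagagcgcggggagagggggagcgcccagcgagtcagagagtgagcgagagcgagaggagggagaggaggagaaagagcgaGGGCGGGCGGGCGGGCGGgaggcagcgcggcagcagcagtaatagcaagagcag
Prdm13: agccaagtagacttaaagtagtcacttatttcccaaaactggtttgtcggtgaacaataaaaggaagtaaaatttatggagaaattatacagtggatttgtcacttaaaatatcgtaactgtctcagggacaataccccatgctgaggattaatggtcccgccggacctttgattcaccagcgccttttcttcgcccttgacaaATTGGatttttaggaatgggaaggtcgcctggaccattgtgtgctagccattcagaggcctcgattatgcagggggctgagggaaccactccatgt
The Pou3f2 region had 67.7% G and C, 24 CG pairs, 2 CCAAT matches and 5 GGGCGG matches, of which those around the start overlap. The Prdm13 region had 44.3% G and C, 8 CG pairs, 1 CCAAT match and no GGGCGG match. Over 32851 promoters of the same length the medians were 52.7% G and C and 7 CG pairs. Of these promoters 37.4% held CCAAT and 35.7% held GGGCGG. Neither region held the POU octamer ATGCAAAT (1.74% of promoters), TATAAA (13.6%), the E-box CANNTG (72.3%), ACAAAG (18.7%) or TAATTA (5.29%). A match is a description of letters and not a binding site.

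Total counts were 2385703 to 2905828 in the injury libraries and 2615213 to 3921627 in the control libraries. Levels below are in CPM, each count scaled by its library's total count. Controls 1 and 2 were unlike control 3 and the injury libraries in markers of other tissues, which were read by summing features over the gene whose exons they overlie. Of 10 kidney epithelium markers 6 could be read, and their summed level was 3.77 to 8.95 CPM in the injury libraries, 3635 and 2063 CPM in controls 1 and 2, and 8.41 CPM in control 3. Slc34a1, the phosphate transporter of the kidney tubule, was at 0 in the injury libraries and in control 3. Glial markers (4 of 8 read) summed to 3955 to 4240 CPM in the injury libraries, 23.1 and 46.9 CPM in controls 1 and 2, and 3800 CPM in control 3. Neuronal markers (10 of 14 read) summed to 3636 to 3874 CPM in the injury libraries, 263 and 103 CPM in controls 1 and 2, most of it Calb1, and 3573 CPM in control 3. Leukocyte markers (6 of 8 read) summed to 157 to 231 CPM in the injury libraries, 242, 872 and 158 CPM in controls 1, 2 and 3. Hox genes of the spinal cord and trunk (4 of 23 read) summed to 217 to 253 CPM in the injury libraries and 39.3, 245 and 225 CPM in controls 1, 2 and 3. Among them Hoxb8 had 129 to 157 CPM in the injury libraries and 4.62, 18.9 and 122 CPM in controls 1, 2 and 3, while Hoxc6, Hoxc4 and Hoxa10 were highest in control 2. Of the 2 of 6 disc and cartilage markers that could be read, Acan had 2.10 to 8.26 CPM in the injury libraries, 0 in controls 1 and 2 and 11.5 CPM in control 3. By these markers controls 1 and 2 go against their tissue label, so a difference from them cannot be read as injured against uninjured spinal cord, and it is given below as a difference from the libraries labelled control 1 and control 2. The part of these markers in the differences below was not tested, and in bulk RNA fewer cells of a type and less RNA per cell cannot be told apart.

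Injury was set against control to find transcripts that differ with spinal cord injury. Pou3f2, Foxp2 and Runx1t1 had low or no counts in controls 1 and 2 and like levels in control 3 and the injury libraries. Zfp462 was also lowest in controls 1 and 2, with a smaller range, Chd7 was highest in controls 1 and 2, and Tox and Plag1 varied less than 3-fold. With all 6 libraries, edgeR's quasi-likelihood test called 0 of the 7 factors tested. Calls were made at 0.05 after Benjamini-Hochberg adjustment over 12646 features, and none of the factors had an unadjusted p under that value. The background was the same, with 0% of features called higher and 0% lower, and 3245 features had an unadjusted p under 0.05. None of the factors passed by DESeq2, which gave Runx1t1 no p, or by limma-voom. When limma-voom weighted the libraries by quality, 5 of the 7 passed as higher, against 27.1% of features higher and 28.6% lower. Dlx5, Dlx6 and Prdm13 did not pass the count filter.

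**Figure D1:**
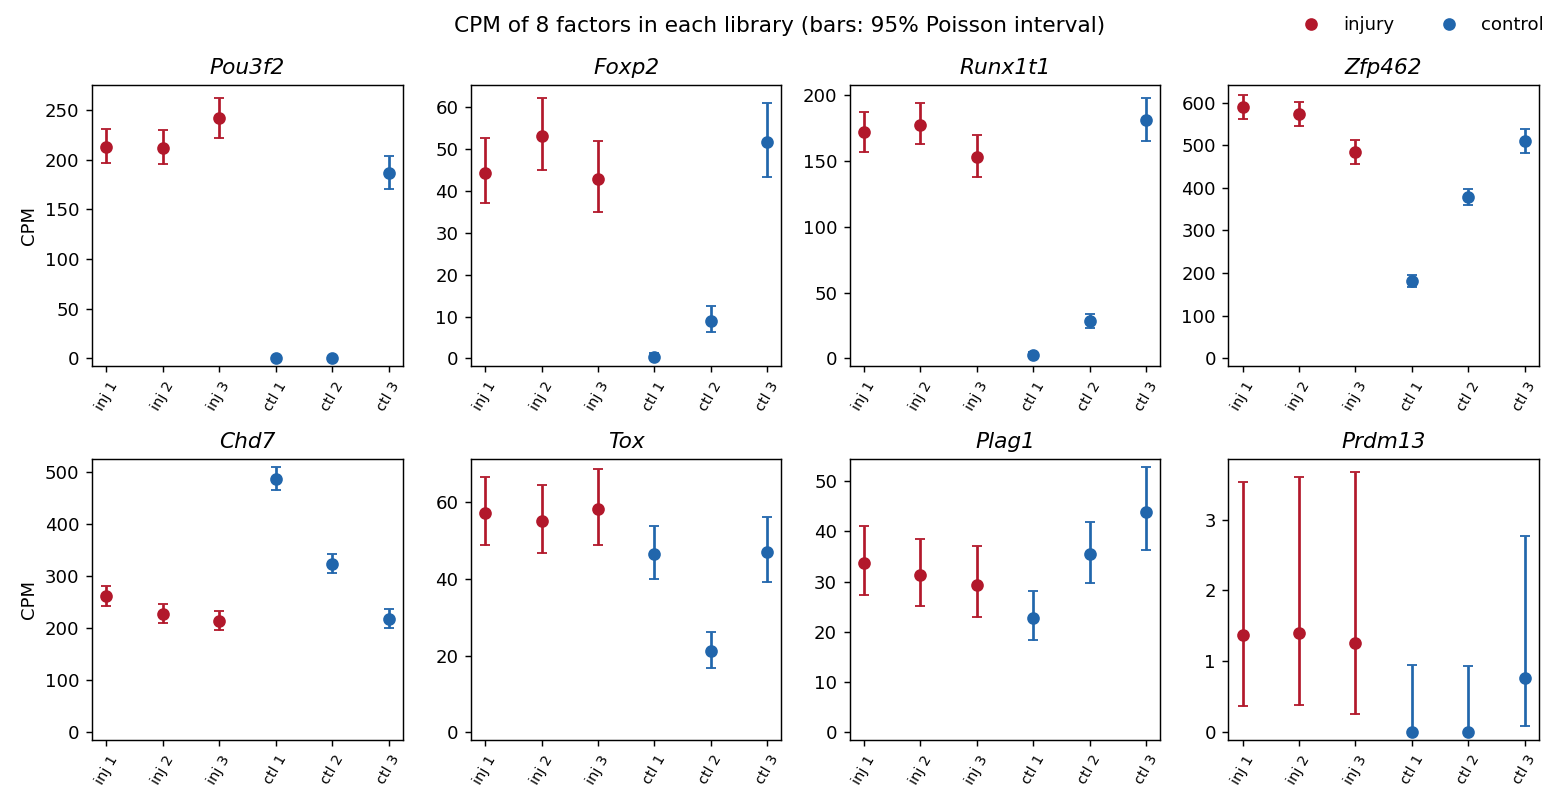
CPM of 8 factors (vertical axes, each with its own range) in the 3 injury libraries (red) and the 3 control libraries (blue). Bars are exact 95% Poisson intervals of the count. Control 3 stands with the injury libraries for Pou3f2, Foxp2, Runx1t1, Zfp462 and Chd7, and controls 1 and 2 stand apart.

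Pou3f2 (chromosome 4, 22482780 to 22488366, minus strand, 5587 exonic bases) had 619, 603 and 576 counts in injury 1, 2 and 3, and 0, 0 and 488 counts in controls 1, 2 and 3. These are 213, 212 and 241 CPM in the injury libraries, against 0, 0 and 187 CPM in the controls. Every injury library was above every control library, and 2 of the 3 controls were empty. Such an order without overlap, higher in injury, held for 13.7% of the 12646 tested features, and among the 7 tested factors it held for Pou3f2 and Tox. The injury mean was 222 ± 16.8 CPM and the control mean 62.2 ± 108 CPM (SD, n = 3 each). The log2 fold change over all 6 libraries was 1.99 (SE 2.18, edgeR adjusted p 0.529). A count of 0 allows up to 0.770 CPM in control 1 and 0.765 CPM in control 2, taking 3 counts as the limit, for counting error only. Taking 3 counts over controls 1 and 2 together as the floor, the Pou3f2 level of the injury libraries was at least 576-fold higher than theirs.

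Prdm13 (chromosome 4, 21677480 to 21685963, minus strand) had 4, 4 and 3 counts in the injury libraries and 0, 0 and 2 counts in controls 1, 2 and 3. As for Pou3f2, controls 1 and 2 had no count and control 3 lay below each injury library. These few counts stood at 1.38, 1.40 and 1.26 CPM in the injury libraries and 0.765 CPM in control 3. Their exact 95% Poisson intervals, 0.259 to 3.67 CPM in injury 3 and 0.0926 to 2.76 CPM in control 3, overlap widely. No fold is given at these counts. Dlx5 (chromosome 6, 6877805 to 6882085) had 0 counts in all 6 libraries, and its neighbour Dlx6 (6863334 to 6868568) had 1 count, in injury 3. The antisense features Dlx6os1 and Dlx6os2 had 0 counts in total. A count of 0 for Dlx5 allows up to 1.26 CPM in injury 3, the shallowest library, and up to 0.765 CPM in control 2, the deepest. The forebrain marker list, which would stand beside the Dlx pair, had 0 of 8 genes that could be read.

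Foxp2 (chromosome 6, 14901348 to 15441976, plus strand, 16346 exonic bases) had 44.4, 53.0 and 42.8 CPM in injury 1, 2 and 3 and 0.257, 8.92 and 51.6 CPM in controls 1, 2 and 3. Control 3 lay within the injury range, and the groups overlap. Runx1t1 (chromosome 4, 13743436 to 13893649, plus strand) had 172, 178 and 153 CPM in the injury libraries and 2.82, 28.3 and 181 CPM in controls 1, 2 and 3. Here control 3 was the highest of all 6 libraries. Over all 6 libraries the log2 fold change was 1.40 (SE 1.28, edgeR adjusted p 0.457) for Foxp2. For Runx1t1 it was 1.43 (SE 1.20, edgeR adjusted p 0.425).

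Foxp2 and Runx1t1 also separated the 2 low controls from each other, which Pou3f2 did not. Foxp2 rested on 1 count in control 1 and 35 in control 2, and Runx1t1 on 11 and 111. The CPM of Runx1t1 in control 2 was 10.03 times that in control 1 (exact 95% interval 5.39 to 20.7, counting error only). For Foxp2 the ratio was 34.8, with an interval of 5.84 to 1412 because of the lone count. Other summed markers also differed between these libraries. Leukocyte markers had 872 CPM in control 2 and 242 CPM in control 1, Hox genes 245 and 39.3 CPM, glial markers 46.9 and 23.1 CPM, neuronal markers 103 and 263 CPM, and kidney markers 2063 and 3635 CPM, in the same order. The neuronal sum was mostly Calb1 in both libraries, and its order is that of Calb1. Of the other neuronal markers, Gad1 (12.7 and 6.93 CPM in controls 2 and 1) and Cnr1 (9.94 and 0 CPM) were higher in control 2. Gabbr2 (0.255 and 4.88 CPM) and Tac1 (0 and 1.03 CPM) were higher in control 1, and the rest were under 1 CPM in both. The part of these markers in the difference of Foxp2 and Runx1t1 was not tested. By the same measure control 2 stood at 2.08 times control 1 for Zfp462 (1.90 to 2.28), at 1.55 times for Plag1 (1.18 to 2.05) and at 0.664 times for Chd7 (0.618 to 0.713). These ratios compare a pair of libraries and not conditions.

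Zfp462 (chromosome 4, 54945048 to 55083563, plus strand) was the factor with the most counts, 8020 over the 6 libraries. It had 590, 573 and 484 CPM in the injury libraries and 181, 378 and 509 CPM in controls 1, 2 and 3. Controls 1 and 2 lay below every injury library, and control 3 lay within the injury range. The SD between injury libraries was 10.4% of the mean, above the 2.61% that counting alone gives. The mean was 549 ± 57.1 CPM in injury and 356 ± 165 CPM in control (SD, n = 3 each), and the log2 fold change 0.82 (SE 0.45, edgeR adjusted p 0.271).

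Chd7 (chromosome 4, 8690406 to 8867659, plus strand) had 261, 228 and 214 CPM in the injury libraries and 488, 324 and 217 CPM in controls 1, 2 and 3. It was the only tested factor with its 2 highest levels in controls 1 and 2, and control 3 lay within the injury range. The mean was 234 ± 24.2 CPM in injury and 343 ± 136 CPM in control (SD, n = 3 each). The log2 fold change was -0.45 (SE 0.47, edgeR adjusted p 0.509), and its sign turned to 0.10 without control 1. Set against Zfp462 within each library, a ratio that no scaling between libraries can change, Chd7 per exon length was 0.343, 0.309 and 0.343 times Zfp462 in the injury libraries. The same ratio was 2.09, 0.665 and 0.331 in controls 1, 2 and 3. Of all counts on the 10 factors, Chd7 took 17.1% to 19.0% in the injury libraries. It took 65.8% in control 1 (95% Wilson interval 64.0% to 67.5%), 40.7% in control 2 (39.0% to 42.4%) and 17.6% in control 3 (16.3% to 18.9%).

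Tox (chromosome 4, 6686353 to 6991557, minus strand) had 57.1, 55.1 and 58.3 CPM in the injury libraries and 46.5, 21.2 and 47.0 CPM in controls 1, 2 and 3. The groups did not overlap, and control 2 rather than control 1 was the lowest. Control 2 was at 0.456 times the level of control 1 (exact 95% interval 0.347 to 0.594). The SD between injury libraries, 2.79% of the mean, was below the 8.07% that counting alone gives, so that spread is not a measure of precision. The log2 fold change was 0.66 (SE 0.47, edgeR adjusted p 0.361). Plag1 (chromosome 4, 3900996 to 3938423, minus strand) had 33.7, 31.3 and 29.3 CPM in the injury libraries and 22.8, 35.4 and 44.0 CPM in controls 1, 2 and 3. Its injury values lay between those of controls 1 and 2, with a log2 fold change of 0.06 (SE 0.33, edgeR adjusted p 0.909), and -0.18 with scaling by total count.

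Without control 3, the comparison sets the injury libraries against the libraries labelled control 1 and control 2, with the markers given above. In this edgeR fit 4 of the 7 tested factors were higher in injury and 0 lower, where 30.2% of 15320 features were higher and 36.6% lower. The median log2 fold change of the 7 tested factors was 1.53, beside -0.20 over all tested features. Runx1t1 was higher by 4.10 on the log2 scale (SE 0.73, edgeR adjusted p 0.00329) and Foxp2 by 3.99 (SE 0.84, edgeR adjusted p 0.00613). Zfp462 was higher by 1.53 (SE 0.27, edgeR adjusted p 0.00308). Pou3f2 also passed (edgeR adjusted p 1.09e-04), with the bound of 576-fold given above, since a fitted value against empty libraries depends on the prior count. Plag1 at 0.63 (SE 0.24, edgeR adjusted p 0.0525), Tox at 1.12 (SE 0.48, edgeR adjusted p 0.0778) and Chd7 at -0.39 (SE 0.36, edgeR adjusted p 0.361) did not pass.

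The scaling decides how Chd7 reads in that comparison. Over all 6 libraries TMM scaling, which equalises the bulk of features, gave control 2 a factor of 1.36 and control 1 a factor of 0.908. In that fit, scaling by total count moved the median of all tested features to -0.75, against -0.20 with TMM. It gave 3279 features higher and 6555 lower in place of 4621 and 5610. Under total count scaling Chd7 passed as lower at -0.81 (SE 0.24, edgeR adjusted p 0.0234). This value is close to the median of all features under that scaling. The 4 higher factors passed under it too, with Zfp462 at 0.95 (SE 0.35, edgeR adjusted p 0.0476). Under RLE scaling Plag1 passed as well, at 0.72 (SE 0.25, edgeR adjusted p 0.0368), and Chd7 did not pass, at -0.33.

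Without controls 1 and 2, the injury libraries stand against control 3 alone, which is then assumed to vary like them. None of the 7 tested factors passed in this fit, where 1.05% of 13857 features were higher and 5.72% lower (edgeR). Pou3f2 had a log2 fold change of 0.37 with TMM scaling (SE 0.17, edgeR adjusted p 0.180), and in CPM on the library total its injury mean was 1.19 times the control 3 level. Tox stood at 0.39 (SE 0.20, edgeR adjusted p 0.211), Zfp462 and Chd7 both at 0.23 (edgeR adjusted p 0.387 and 0.392), and Plag1 at -0.36 (SE 0.22, edgeR adjusted p 0.299). Runx1t1 at 0.01 (SE 0.16) and Foxp2 at -0.02 (SE 0.20) were the nearest to 0. A p that misses the threshold in a fit with a lone control does not show that these levels are equal.

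**Figure D2:**
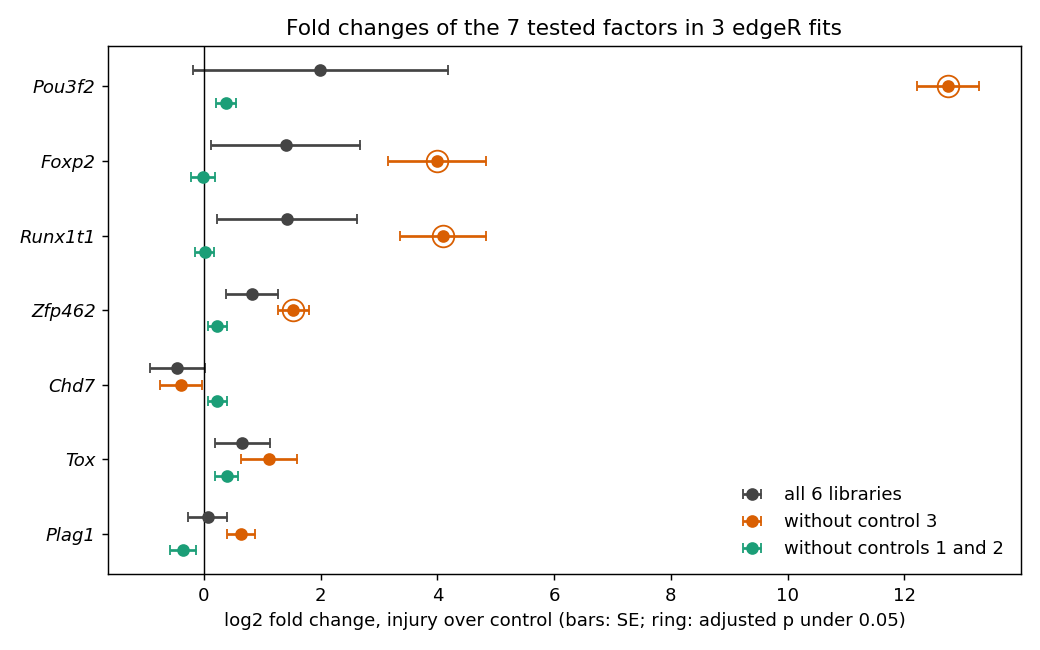
Log2 fold change, injury over control (horizontal axis), of the 7 tested factors in 3 edgeR fits, with SE as bars and a ring where the adjusted p was under 0.05. The rings appear without control 3 for Pou3f2, Foxp2, Runx1t1 and Zfp462, and values without controls 1 and 2 lie between -0.36 and 0.39. The Pou3f2 value without control 3 rests on empty libraries and depends on the prior count.

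Levels of different genes were compared per kilobase of exon, taking all exons counted for a gene name as its length. The transcripts present may be shorter, so the order of genes holds for this length only. In the injury libraries Zfp462 was highest at 51.3 ± 5.34 CPM per kb (SD, n = 3), followed by Pou3f2 at 39.7 ± 3.004, Runx1t1 at 21.0 ± 1.62 and Chd7 at 17.0 ± 1.75 CPM per kb. Lower came Tox at 7.47 ± 0.208, Plag1 at 3.70 ± 0.259, Foxp2 at 2.86 ± 0.338 and Prdm13 at 0.315 ± 0.0183 CPM per kb. This order of the upper 7 was the same in each injury library and in control 3. The SD was 5.80% of the mean for Prdm13 and 6.99% for Plag1, where counting alone gives 52.6% and 10.9%. As for Tox, these SDs are not a measure of precision. The lowest Zfp462 value, 45.2 CPM per kb in injury 3, was near the highest Pou3f2 value, 43.2 in the same library. In control 1 Chd7 came highest, at 35.4 CPM per kb, with Zfp462 at 17.0. In control 2 Zfp462 led at 35.3 CPM per kb with Chd7 at 23.5, and Plag1, Runx1t1 and Tox lay together at 4.18, 3.56 and 2.78 CPM per kb.

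**Figure D3:**
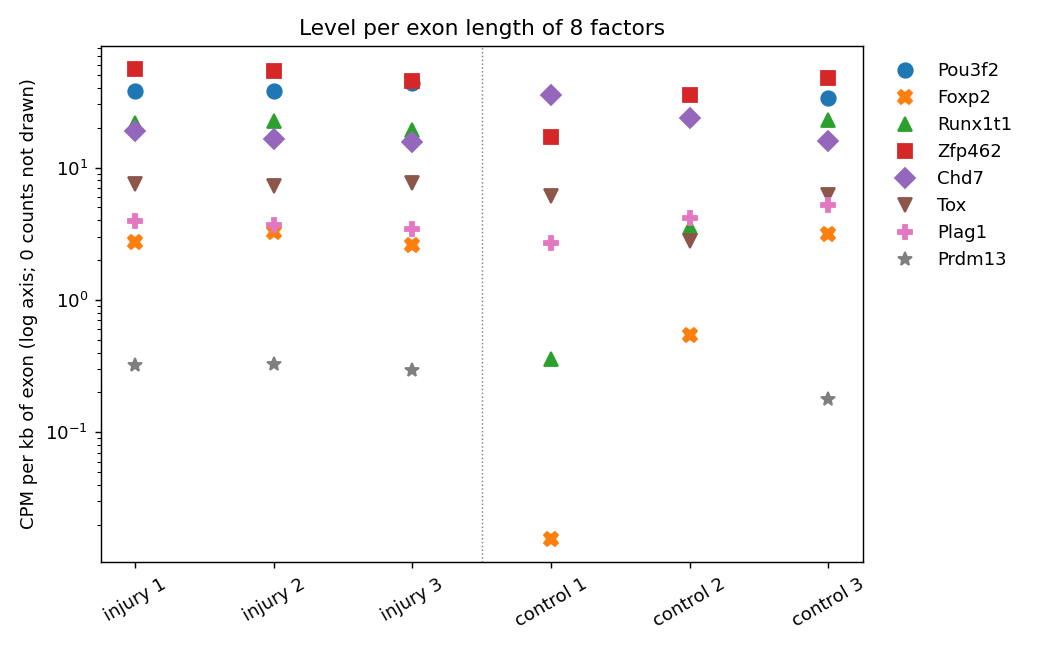
CPM per kilobase of exon (log axis) of 8 factors in each library, injury left and control right of the dotted line. The order is the same in the injury libraries and in control 3, and Chd7 is highest in control 1 at 35.4 CPM per kb. Libraries with 0 counts (Pou3f2 and Prdm13 in controls 1 and 2) have no point.

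The genes with the most similar patterns were named by a fixed measure, the Euclidean distance between profiles of log2(CPM + 1) over the 6 libraries after removing each gene's mean. It ran over the 523 features, of 53546, that lay on their own exons with at least 50 counts. The measure is a description of 6 libraries that fall into separate groups. Adding 1 to each CPM also damps differences at the lowest levels. In control 1 this touches Foxp2 at 0.257 CPM, and Pou3f2 at 0 CPM beside Dync1i1 at 2.05 CPM. Foxp2 and Runx1t1 were each other's nearest gene, at a distance of 0.306, where the median distance was 4.32 from Foxp2 and 4.53 from Runx1t1. Kbtbd3 was among the 3 nearest genes of both, at 0.429 from Foxp2 and 0.354 from Runx1t1, and Gm16485 (0.426) was the other one of Foxp2. Nearest to Pou3f2 were Dync1i1 (0.263), Clvs1 (0.352) and Necab1 (0.721). Tox had Ubap1 (0.201), Bag1 and Tmem106b nearest, and Zfp462 had Npr2 (0.234), 4933421O10Rik and Tmem209. Chd7 was nearest to Tgfbr1 (0.328), a receptor kinase for TGF-beta, and Dnajc25 (0.436) was also among its nearest. Plag1 was nearest to Glcci1 (0.362), Mdn1 and Orc3.

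Of 25 other transcription and chromatin genes, chosen from stretches where the names of the files may hold, 22 were features on their own exons. With all 6 libraries 17 were tested and 0 passed by edgeR. Without control 3, 19 were tested, with 8 higher and 5 lower in injury against the 30.2% and 36.6% of all features. Without controls 1 and 2, 17 were tested and 0 passed. Zeb1, a zinc finger and homeodomain repressor of epithelial genes, had 932, 973 and 970 CPM in the injury libraries and 89.6, 283 and 892 CPM in controls 1, 2 and 3. It rose without control 3 (log2 fold change 2.97, SE 0.40, edgeR adjusted p 0.00121), with control 2 between control 1 and the other 4 libraries as for Runx1t1. Zfp438 rose too, at 76.4, 75.2 and 84.3 CPM in the injury libraries and 18.5, 35.7 and 81.4 CPM in controls 1, 2 and 3. The other 6 higher genes were Pax5, Creb3, Zbtb5, Zfp800, Casp8ap2 and Zfp189, with log2 fold changes of 0.73 to 1.97. In CPM, control 2 lay within the injury range for Zbtb5, Casp8ap2 and Zfp189. Read by overlying gene without control 3, Casp8ap2, Zfp189 and Zfp800 did not pass (edgeR adjusted p 0.239, 0.415 and 0.124). Pax5 passed in that reading too (edgeR adjusted p 0.0372).

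The 5 lower genes without control 3 were Tfec, Gata6, Trp53inp1, Klf4 and Greb1l. Tfec, of the MiT family of helix-loop-helix factors, had 0 counts in the injury libraries and in control 3, and 49.0 and 65.5 CPM in controls 1 and 2. Gata6, an endoderm and mesoderm factor, had 0.344, 0 and 0.419 CPM in the injury libraries, and 22.3, 39.8 and 0.382 CPM in controls 1, 2 and 3. Klf4, an epithelial and stem cell factor, had 20.3, 12.6 and 18.0 CPM in the injury libraries and 84.4, 76.2 and 11.5 CPM in controls 1, 2 and 3. Greb1l had 101 to 107 CPM in the injury libraries and 297, 274 and 118 CPM in controls 1, 2 and 3, a like direction to Chd7 in CPM. Trp53inp1 stood at 2115 CPM in control 1 alone, with 159 to 215 CPM in the injury libraries and 272 and 173 CPM in controls 2 and 3. Nfx1 (399 to 401 CPM in injury, 416 to 448 CPM in control), Zfp292, Bach2, Epc1, Crem and Smc2 did not pass in any of these 3 fits.

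**Figure D4:**
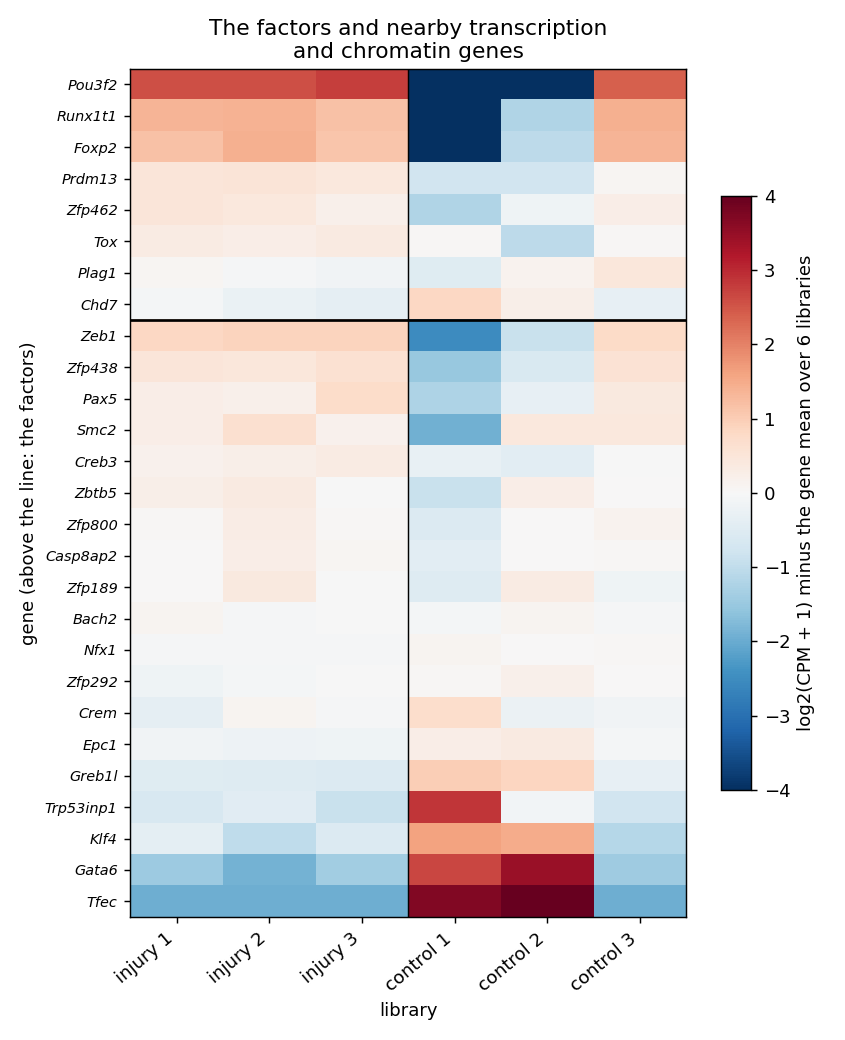
Log2(CPM + 1) minus the mean of each gene over the 6 libraries, injury libraries left. Above the line are 8 factors, and below it other transcription and chromatin genes with at least 50 counts. The genes below the line lie on chromosomes 4, 6 and 18. Colours are limited to the range -4 to 4. Control 3 has the colours of the injury libraries in nearly every row, and Pou3f2, Runx1t1, Foxp2 and Zeb1 are low and Tfec and Gata6 high in controls 1 and 2.

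Paralogs of the factors and other neural factors do not lie on their own exons in the files, so they were read by overlying gene, where the fit without control 3 called 28.1% of 5376 genes higher and 31.7% lower. Of 24 paralogs 10 could be read and 8 were tested, with 1 higher and 2 lower, and these 3 are named after their values were seen. Foxp1, the closest paralog of Foxp2, was lower in injury than in controls 1 and 2 (edgeR adjusted p 0.0121), in the opposite direction to Foxp2. It had 50.2, 41.4 and 56.2 CPM in injury and 77.5, 235 and 51.6 CPM in controls 1, 2 and 3. Prdm16 was lower too (0.419 to 1.40 CPM in injury, 9.50, 53.8 and 0.765 CPM in the controls, edgeR adjusted p 0.00350). Cbfa2t2, a corepressor paralog of Runx1t1, rose (59.2, 68.1 and 60.4 CPM in injury, 14.4, 27.0 and 47.0 CPM in controls 1, 2 and 3, edgeR adjusted p 0.00275). Cbfa2t3, the other tested paralog of Runx1t1, was opposite in sign to Runx1t1 and did not pass, at -2.27 on the log2 scale (edgeR adjusted p 0.0558). Its levels were 5.85, 3.86 and 5.45 CPM in injury and 4.62, 52.0 and 4.97 CPM in controls 1, 2 and 3. Pou3f3, a paralog of Pou3f2, was opposite in sign to Pou3f2 and did not pass either, at -0.87 (edgeR adjusted p 0.101). Chd6, Chd8 and Chd9, relatives of Chd7, did not pass, at log2 fold changes of 0.03, -0.21 and -0.31. Fold changes in this fit by overlying gene are not on the scale of the fit by name. Zeb1 stood at 2.49 by overlying gene and 2.97 by name, and the median of the 7 tested factors at 1.04 and 1.53. The Chd6, Chd8 and Chd9 values therefore cannot be set beside that of Chd7 above.

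Of 50 other transcription factors of neural development 11 could be read and 7 were tested without control 3, with 3 higher and 1 lower. Satb1, a chromatin organiser, had 28.6, 29.8 and 30.6 CPM in injury and 2.82, 3.57 and 26.0 CPM in controls 1, 2 and 3. Neurod2, a helix-loop-helix factor of neurons, had 20.3, 15.1 and 13.8 CPM in injury, 0 in controls 1 and 2 and 19.5 CPM in control 3. Bcl11a was the other higher gene, these names too were picked after their values were seen, and Rest, a repressor of neuronal genes outside neurons, was the lower one, at 1.68 to 1.76 CPM in injury and 5.13, 8.92 and 1.15 CPM in controls 1, 2 and 3. None of the paralogs or of these factors passed with all 6 libraries or without controls 1 and 2 (edgeR), where 0% of genes were called in the first fit, and 0% higher and 0.549% lower in the other.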

How the data were processed

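The values are counts of read pairs per gene feature in 6 libraries, grouped by the sample group label, with replicate numbers from the titles. The deposited counts were made by the authors with featureCounts 2.0.1, per the file headers, from pairs with both ends mapped on 1 chromosome, and summed over the exons of each gene name. No strand option was set, and reads that map to several places or to several features were not counted. Reads of a gene and of its antisense partner therefore cannot be told apart. Bowtie 0.12.2 and the builds mm8 and mm9 appear in the submitters' processing notes. The aligner behind the counts and the build of their annotation are not given in the sources used here. A table of the whole series was not used.

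Features were set by their coordinates against exons of GENCODE M21 (GRCm38), with no coordinate converted. An overlying gene needed at least 100 shared exonic bases, at least 90% of them its own, and 44.4% of counts had one. Its sums cover only part of a gene. The test was edgeR 4.0.16 (R 4.3.3) with TMM scaling, default filterByExpr, the quasi-likelihood F test and Benjamini-Hochberg adjustment over all tested features, with calls at 0.05. Standard errors come from the F statistic. The pipeline was tested on simulated counts. Alternatives were RLE and total count scaling, other filters, DESeq2 1.42.0, limma-voom (limma 3.58.1) with and without sample quality weights, a replicate block, and fits with libraries or the 10 most abundant features left out. The reading by overlying gene and the fits without control 3 under other scalings were added after seeing the data. The 10 factors and the lists were chosen with earlier results of these data known. Genes were named by rule: the 10 factors, for each the 3 features nearest in profile, list genes on their own exons, and tissue markers with high levels. Not every tissue marker with a high level is named. The paralogs and neural factors read by overlying gene were named outside this rule. A gene that this rule takes is not reported here. Intervals and the limit of 3 counts cover counting error only. Library totals of 2385703 to 3921627 counts set the precision of low genes.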

Additional observations from a re-analysis of the deposited data

How the results depend on the processing

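With all 6 libraries, edgeR called 0 features and 0 of the factors under every scaling and filter tried. By DESeq2, 18 features were higher and 1485 lower. Quality weights in limma-voom gave 3425 higher, 3617 lower and 5 factors higher (Pou3f2, Foxp2, Runx1t1, Tox and Zfp462). Leaving out 1 library gave 0 to 4621 features higher, 0 to 5610 lower and 0 to 4 factors higher, and every call came without control 3. Without controls 1 and 2, 146 features were higher and 793 lower. Without control 3, total count scaling gave 3279 higher and 6555 lower, with 4 factors higher and 1, Chd7, lower, and RLE scaling gave 4779 higher and 5403 lower, with 5 factors higher. Signs turned for 3 factors. Foxp2 was -0.0213 without controls 1 and 2. Chd7 was 0.23 without controls 1 and 2 and ran from -0.66 to 0.10 when 1 library was left out. Plag1 was -0.18 with total count scaling and -0.36 without controls 1 and 2, and ran from -0.0767 (without control 1, and -0.0676 without control 2) to 0.63. The cause was not tested. Same-numbered libraries correlated at 0.0643, -0.137 and 0.0543 in their deviations from group means. The control deviations hold the difference of controls 1 and 2 from control 3. These correlations therefore cannot decide whether the numbers pair the libraries. With the replicate block 0 features and 0 factors were called, as without it. DESeq2 gave no p for Runx1t1. Without the 10 most abundant features in the total, 34 of 60 CPM values moved by no more than the SD of their group and 26 by more. Depth limits Dlx5, Dlx6 and Prdm13, which cannot be compared.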
